A study of Homo sapiens with 28 samples.

Results

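Retention of long introns was described in human leukemia cells depleted of MBNL1. The events were the entries of the deposited splicing table annotated exactly as intron retention in which the longer of the 2 junctions compared, the examined or the background junction, spanned at least 500 bases. Of 34064 intron retention entries, 21377 (62.8%) met the rule, out of 100814 splicing events of all kinds, and they lay in 5962 genes and 7803 junction clusters. Just inside the limit, 190 events spanned up to 10 bases more than it, and 222 events just outside fell up to 10 bases short of it. Each event gives an inclusion level (percent spliced in, PSI), the share of junction reads that run through an exon-intron boundary rather than across the spliced junction, and it is reported here as a percent of retention. Where the table examined the spliced junction (5774 events) in place of the boundary (15603 events), inclusion was taken as 1 minus the deposited value.

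The cells were 2 established acute myeloid leukemia lines with a rearranged MLL gene, MOLM13 (MLL-AF9) and MV4;11 (MLL-AF4), transduced with lentiviral short hairpins and selected with puromycin. Hairpins 64 and 65 (shMBNL1-64 and shMBNL1-65) target MBNL1, and shNT is the non-targeting hairpin carried by every control culture. In MOLM13, hairpin 64 was sequenced in 3 libraries at day 4 and in 3 at day 12, each beside 3 shNT libraries of its own. Hairpin 65 was sequenced in 4 MOLM13 libraries, set against a second set of 3 shNT libraries. MV4;11 libraries were 3 with hairpin 64, 3 with hairpin 65 and 3 with shNT, so that both MV4;11 comparisons share the same shNT libraries. The labels name only day 12, the study's text gives day 4, and neither gives the day of the hairpin 65 and MV4;11 libraries. All libraries were prepared from total RNA, and those of day 12 were sequenced on another instrument than the rest. Apart from day 12, nothing states that replicates were separate cultures, so a p-value measures only the spread between these libraries, which may be technical.

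MBNL1 is an RNA-binding protein that regulates alternative splicing and RNA localization. It binds YGCY motifs (Y is C or T in DNA letters), and the position of binding relative to a splice site is known to decide whether a splice site is used or skipped. Most retained introns are thought to stay in the nucleus or to be removed by nonsense-mediated decay when they bring a premature stop codon, and intron retention is a normal layer of gene regulation in granulocytic cells.

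The introns on which the results turn are shown first, as the 30 exon bases and 110 intron bases at each end, read 5′ to 3′ in the direction of transcription from GRCh37. They were chosen because the retention of 3 of them rose and that of SRGAP2 fell in more than 1 comparison. Capitals mark the YGCY letters searched (TGCT or else TGCC, and CGCT or else CGCC, on the transcribed strand only), and the intron begins after 30 bases in a 5′ line and ends 30 bases before the end of a 3′ line.
BICD2 intron 7, 5′ end, chr9:95477425-95477564, minus strand: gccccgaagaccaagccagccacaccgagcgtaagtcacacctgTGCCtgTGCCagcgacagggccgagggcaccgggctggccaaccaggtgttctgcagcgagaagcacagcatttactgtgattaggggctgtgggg
BICD2 intron 7, 3′ end, chr9:95475714-95475853, minus strand: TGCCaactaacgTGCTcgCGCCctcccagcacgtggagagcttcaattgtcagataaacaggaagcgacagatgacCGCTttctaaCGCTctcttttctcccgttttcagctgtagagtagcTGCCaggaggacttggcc
DNM1 intron 9, 5′ end, chr9:130985110-130985249, plus strand: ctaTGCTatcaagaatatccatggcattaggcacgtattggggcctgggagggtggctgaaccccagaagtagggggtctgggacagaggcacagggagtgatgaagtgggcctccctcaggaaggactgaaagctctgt
DNM1 intron 9, 3′ end, chr9:130986420-130986559, plus strand: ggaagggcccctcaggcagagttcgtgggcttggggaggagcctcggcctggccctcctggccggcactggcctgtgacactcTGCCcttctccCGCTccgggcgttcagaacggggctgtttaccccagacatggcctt
DOT1L intron 27, 5′ end, chr19:2227097-2227236, plus strand: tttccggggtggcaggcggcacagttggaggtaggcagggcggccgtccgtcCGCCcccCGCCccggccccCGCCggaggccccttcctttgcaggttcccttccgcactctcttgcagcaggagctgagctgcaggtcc
DOT1L intron 27, 3′ end, chr19:2229674-2229813, plus strand: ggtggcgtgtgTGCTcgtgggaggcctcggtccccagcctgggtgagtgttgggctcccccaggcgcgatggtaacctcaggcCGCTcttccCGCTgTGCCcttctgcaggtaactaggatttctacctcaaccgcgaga
SRGAP2 intron 17, 5′ end, chr1:206628341-206628480, plus strand: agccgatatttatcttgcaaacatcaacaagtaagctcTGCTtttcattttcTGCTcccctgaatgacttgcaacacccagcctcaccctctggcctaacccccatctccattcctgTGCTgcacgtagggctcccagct
SRGAP2 intron 17, 3′ end, chr1:206631859-206631998, plus strand: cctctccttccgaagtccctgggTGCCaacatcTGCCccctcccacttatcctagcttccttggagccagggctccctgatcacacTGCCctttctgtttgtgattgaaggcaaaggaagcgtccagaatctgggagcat

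All 4 introns lie between coding exons. BICD2 intron 7 (chr9:95475744-95477534, 1791 bases) is the last of 7 introns, DOT1L intron 27 (chr19:2227127-2229783, 2657 bases) the last of 27, SRGAP2 intron 17 (chr1:206628371-206631968, 3598 bases) comes before the last of 18, and DNM1 intron 9 (chr9:130985140-130986529, 1390 bases) is one of 21. Counted over the 250 intron bases next to a splice site, BICD2 intron 7 held 7 motifs at its 5′ end, a number reached by 10.8% of the 5708 long introns, and 10 at its 3′ end (1.45%). SRGAP2 intron 17 held 10 motifs at its 5′ end (2.58% of introns hold as many) and 3 at its 3′ end (53.9%). DOT1L intron 27 held 6 (16.7%) and 7 (8.09%), and DNM1 intron 9 held 2 (75%) and 3 (53.9%). DNM1 intron 9 begins with GC in place of GT, as 0.911% of the long introns did. Read on in the upstream frame, retained intron sequence met a first stop after 33 codons in BICD2, 15 in DNM1 intron 9, 115 in DOT1L and 2 in SRGAP2. A motif match is a match of letters and not a measured binding site.

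The events did not all measure the same thing. In 8235 (38.5%) the spliced junction shared the boundary that was examined, which gave 5708 distinct introns of 499 to 219818 bases (median 1627), of which 915 were 5000 bases or longer, 89.4% matched an annotated intron and 868 were measured at both ends. In 4328 (20.2%) the boundary belonged to an annotated intron inside a longer spliced junction, and in 1952 of these that intron was under 500 bases. In 8801 (41.2%) the boundary lay at another position inside the spliced junction, such as the edge of an exon that the junction skips, and in 13 it lay outside. A long intron event is therefore an event with a long junction, and the retained stretch itself can be short. In 3373 pairs of events the same 2 junctions were examined in turn. Inclusion was higher by a mean of 10.8 points and a median of 4.87 points where the spliced junction was examined, the difference was never below 0, and it passed 10 points in 1115 pairs (33.1%). Levels of these mirror events are therefore not compared with each other, and their events are not independent.

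MBNL1 had a lower mean in the knockdown in every comparison, and hairpin 65 left more of it than hairpin 64. With hairpin 64, MBNL1 averaged 3.23 ± 0.493 RPKM (reads scaled to gene length and library size) in MOLM13 at day 4, against 22.5 ± 5.34 RPKM with shNT. It averaged 4.40 ± 0.260 against 26.4 ± 0.657 RPKM at day 12, and 3.72 ± 0.236 against 22.4 ± 3.53 RPKM in MV4;11 (SD, n = 3 each). With hairpin 65 it averaged 12.7 ± 3.13 RPKM in MOLM13 (SD, n = 4), against 18.9 ± 1.34 RPKM in the second shNT set (SD, n = 3), and 12.0 ± 1.07 RPKM in MV4;11 (SD, n = 3), against the same 22.4 ± 3.53 RPKM. The MOLM13 hairpin 65 difference missed the limit of 1.5-fold at p of 0.01 or less (log2 fold change −0.57, limma), and the other 4 passed it. Both lines expressed the leukocyte marker PTPRC (26.0 to 62.2 RPKM) and the myeloid markers SPI1 (95.9 to 237 RPKM) and LYZ (531 to 3912 RPKM). The myeloid marker MPO was low in MV4;11 (0.83 to 6.81 RPKM) and ranged widely in MOLM13 (3.26 to 126 RPKM), while CD3E, HBB and PF4 stayed at or below 0.0795 RPKM. CD3D reached 12.2 RPKM and KRT18 10.6 RPKM. Read depth is unknown, since the tables hold PSI and RPKM and no read counts, so no counting interval can be given.

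Far more long intron events rose than fell when MBNL1 was depleted, in both lines and with both hairpins. An event was called when the unadjusted limma p was 0.01 or less and the inclusion differed by more than 10 points, the limits of the study's methods. In MOLM13 at day 4, 190 events rose and 26 fell with hairpin 64, 216 of 14312 tested (1.51%) in 130 genes, beside 1.73% of all 71848 splicing events called, 0.991% higher and 0.743% lower. At day 12, 195 rose and 58 fell, 253 of 16025 (1.58%) in 163 genes, beside 2.34% of all events, 1.29% higher and 1.05% lower. With hairpin 65 in MOLM13, 206 rose and 17 fell, 223 of 14226 (1.57%) in 142 genes, beside 1.28% of all events, 0.876% higher and 0.402% lower. In MV4;11, hairpin 64 gave 118 that rose and 32 that fell, 150 of 14719 (1.02%) in 95 genes, beside 1.64% of all events, 0.884% higher and 0.753% lower. Hairpin 65 in MV4;11 gave 60 that rose and 17 that fell, 77 of 14772 (0.521%) in 57 genes, beside 0.866% of all events, 0.511% higher and 0.355% lower. In 4 of the 5 comparisons the share of long intron events called was below that of all events, and the share called higher was above it only in the day 4 and hairpin 65 comparisons of MOLM13 (1.33 and 1.45%). The hairpin 65 counts rested in part on single libraries, with 145 called in MOLM13 without the control library in column 3 of the second shNT set and 134 in MV4;11 without hairpin 65 library 1. The hairpin 65 split in MOLM13 also rested on its control set. With the day 4 and second-set shNT libraries together as 6 controls, 112 events rose and 54 fell, 67.5% of the calls higher in place of 92.4%. Both libraries numbered 3 of day 4 stood apart from the rest, and without them 211 events were called there.

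**Figure D1:**
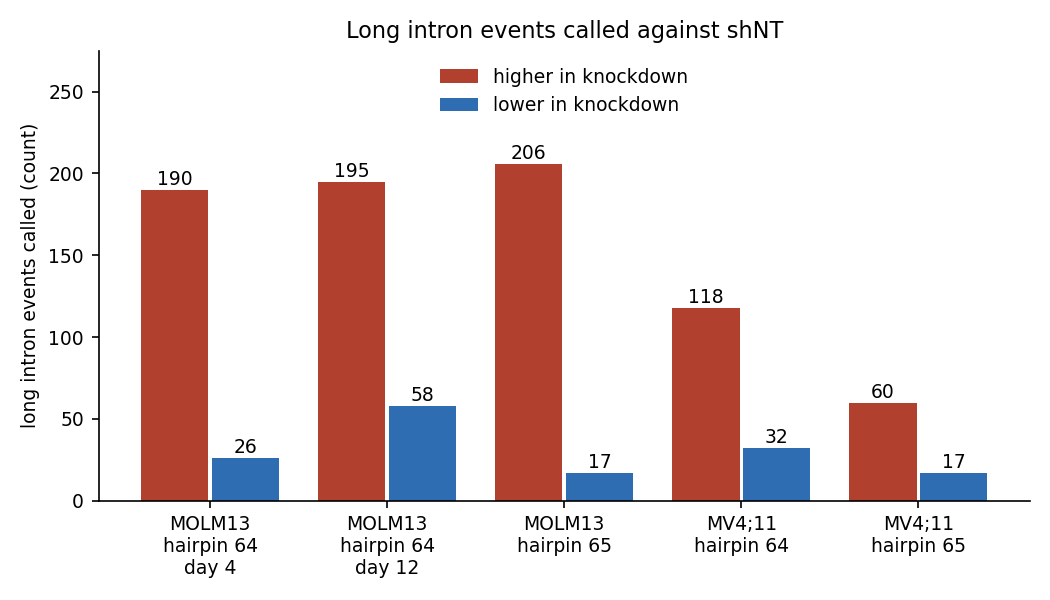
Number of long intron events called against shNT in each of the 5 comparisons, with bars for events higher (left, red) and lower (right, blue) in the knockdown. The count of higher events passes that of lower events in each comparison, from 60 against 17 in MV4;11 with hairpin 65 to 206 against 17 in MOLM13 with hairpin 65.

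Of the calls, 88.0% were higher in MOLM13 at day 4, 77.1% at day 12, 92.4% with hairpin 65, 78.7% in MV4;11 with hairpin 64 and 77.9% with hairpin 65. Among cassette exon calls of the same comparisons, 42.1%, 46.7%, 48.1%, 44.2% and 53.9% were higher. Short introns, with both junctions under 500 bases, leaned the same way as long ones, with 159 higher and 6 lower at day 4, 141 and 27 at day 12, 164 and 3 with hairpin 65 in MOLM13, 102 and 11 with hairpin 64 in MV4;11, and 32 and 15 with hairpin 65 there. Neither contrast was tested.

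Few of the calls passed an adjusted p of 0.05 over all events tested. At day 4, 25 long intron events passed it (19 higher, 6 lower) beside 0.269% of all events, and at day 12 it was 82 (62 higher, 20 lower) beside 0.782%. In MV4;11 with hairpin 64 it was 33 (23 higher, 10 lower) beside 0.278%. With hairpin 65 only 6 passed in MOLM13 (6 higher) beside 0.0265%, and 3 in MV4;11 (2 higher, 1 lower) beside 0.0188%. All called events had groups that did not overlap. The call limits nearly force this with so few libraries, so it adds no support to the calls.

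Values of exactly 0 shaped many of the calls. All shNT libraries stood at 0 in 53 of the 190 events that rose at day 4, 58 of 195 at day 12, 90 of 206 with hairpin 65 in MOLM13, 63 of 118 with hairpin 64 in MV4;11 and 30 of 60 with hairpin 65 there. No fold is given for such events, since the reads behind a 0 are unknown. With only events above 0 in every library of both groups, a choice made after seeing the data, the calls numbered 101 at day 4, 156 at day 12, 78 in MOLM13 with hairpin 65, 56 in MV4;11 with hairpin 64 and 24 with hairpin 65 there, of which 87.1, 73.1, 84.6, 64.3 and 66.7% were higher. Some introns switched between 0 and a high level among replicates, and 1157 of the 21377 events (5.41%) held both a 0 and a value of 50% or more within at least 1 group.

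Averaged over the 10931 long intron events measured in all 28 libraries, inclusion was higher in the knockdown than in its own shNT group in every comparison, by about 1 to 2 points. In MOLM13 the mean per library was 10.4, 9.39 and 11.1% with hairpin 64 at day 4, against 7.93, 8.23 and 9.39% with shNT. The highest shNT library lay at the level of the lowest hairpin library, and the groups overlapped. Same-numbered libraries of day 4 were taken as pairs, which no label states, and within each of the 3 pairs the hairpin 64 library was higher, by 2.47, 1.16 and 1.70 points. At day 12 it averaged 10.2 ± 0.343% with hairpin 64, against 9.13 ± 0.178% with shNT (SD, n = 3 each), with no overlap. Hairpin 65 libraries of MOLM13 averaged 8.51 ± 0.830% (SD, n = 4), against 6.45 ± 0.0922% in the second shNT set (SD, n = 3), with no overlap. That set was low among the MOLM13 controls, and hairpin 65 was not above the shNT groups of day 4 (8.52 ± 0.772%) or day 12 (9.13 ± 0.178%).

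In MV4;11 the mean inclusion was 7.51 ± 0.469% with hairpin 64 and 7.45 ± 1.02% with hairpin 65, against 6.67 ± 0.549% with shNT (SD, n = 3 each), and both hairpin groups overlapped the controls. The median difference per event was 0 in all 5 comparisons. In MOLM13 at day 4, 38.8% of events had a difference above 0 and 18.2% below 0, and the other comparisons gave 30.1 to 41.5% above and 15.1 to 23.6% below. Detection moved with the group in part of the series. In MOLM13 with hairpin 65, a library measured 16091 long intron events on average. Of the events measured in every library, 54.8% were at 0, against 14446 measured and 67.1% at 0 in the second shNT set, without overlap of the groups. In MV4;11 a library measured 15816 with hairpin 64 and 15881 with hairpin 65, against 15100 with shNT, without overlap, and the share at 0 was 60% with hairpin 64, against 66.5% with shNT, again without overlap. The part of detection in the higher inclusion was not tested.

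**Figure D2:**
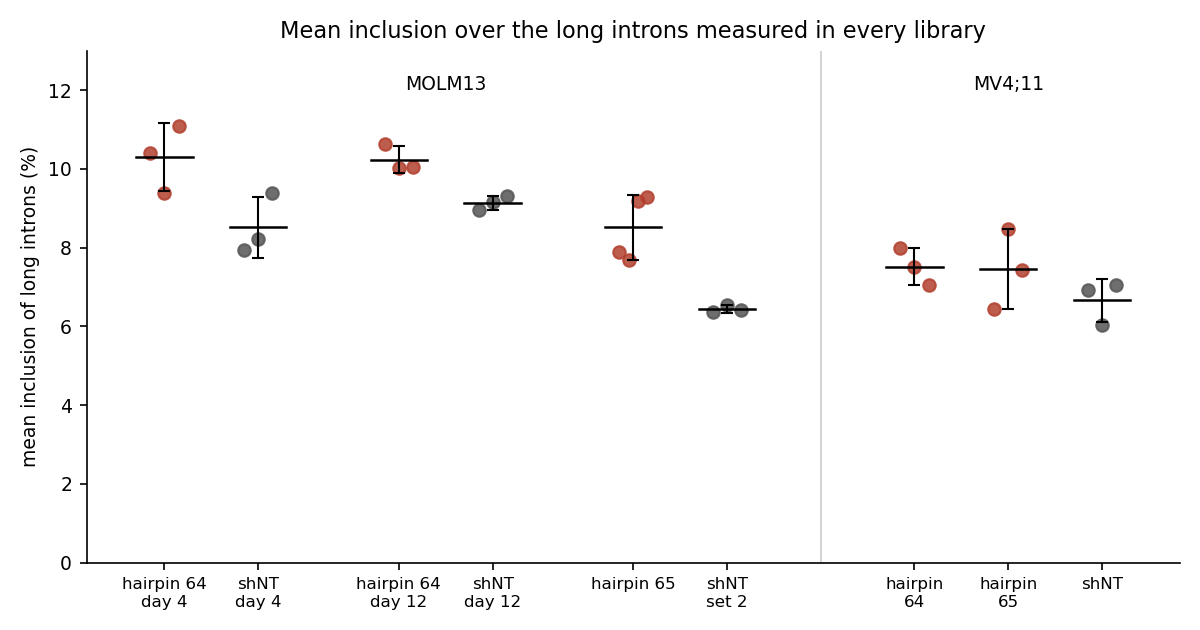
Mean inclusion (%) over the 10931 long intron events measured in every library, 1 point per library, with group means and SD as black lines, for MOLM13 (left) and MV4;11 (right), knockdown in red and shNT in gray. Each knockdown mean lies above that of its shNT group, and the groups are separate only for MOLM13 at day 12 and MOLM13 with hairpin 65.

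Individual introns moved much further than the mean. BICD2, a dynein adaptor that links cargo vesicles to the microtubule motor, had one of the clearest responses to hairpin 64. Inclusion at the first boundary of BICD2 intron 7 was 75, 73.5 and 78.8% in hairpin 64 libraries of day 4, against 0, 9.09 and 12.1% with shNT (difference 68.7 ± 3.8 points, SE of the limma fit, adjusted p = 0.018). At day 12 the values were 76.0, 68.8 and 76.7%, against 5.15, 6.25 and 6.67% (67.8 ± 2.5 points, adjusted p = 0.0025). The lowest hairpin 64 library of MOLM13 (68.8%) was far above the highest control (12.1%).

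In MV4;11 the same boundary stood at 72.2, 42.3 and 35.3% with hairpin 64, against 0 in all 3 shNT libraries (49.9 ± 11 points, limma adjusted p = 0.32). The groups did not overlap, but the 3 hairpin libraries were spread, and the call was lost without hairpin 64 library 2 (53.8 points) or without any 1 of the shNT libraries (49.9 points). An acceptor boundary inside the intron gave a tighter difference, at 76.2, 65.1 and 65.6% with hairpin 64, against 0 in all 3 shNT libraries (69.0 ± 3.4 points, limma adjusted p = 0.014).

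Hairpin 65 left BICD2 intron 7 near its control level in most libraries. The first boundary was at 21.9% in MOLM13 library 1 and at 0 in the other 3, against 0 in the second shNT set. In MV4;11 it was at 0, 0 and 17.1%, against 0. The hairpins were compared directly in MV4;11, where inclusion at the inner acceptor boundary was higher with hairpin 64 than with hairpin 65 by 62.5 ± 7.1 points (0, 0 and 19.4% with hairpin 65, limma adjusted p = 0.15). The hairpins also differ in how much MBNL1 they leave, so the MBNL1 level and the hairpin sequence cannot be told apart. BICD2 expression, in contrast, fell only with hairpin 65 at the limits used, to 1.90 ± 0.33 RPKM, against 3.43 ± 0.40 RPKM in MOLM13, and to 2.00 ± 0.29 RPKM, against 3.65 ± 0.82 RPKM in MV4;11 (SD, log2 fold change −0.62 in both, limma adjusted p = 0.14 and 0.079).

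**Figure D3:**
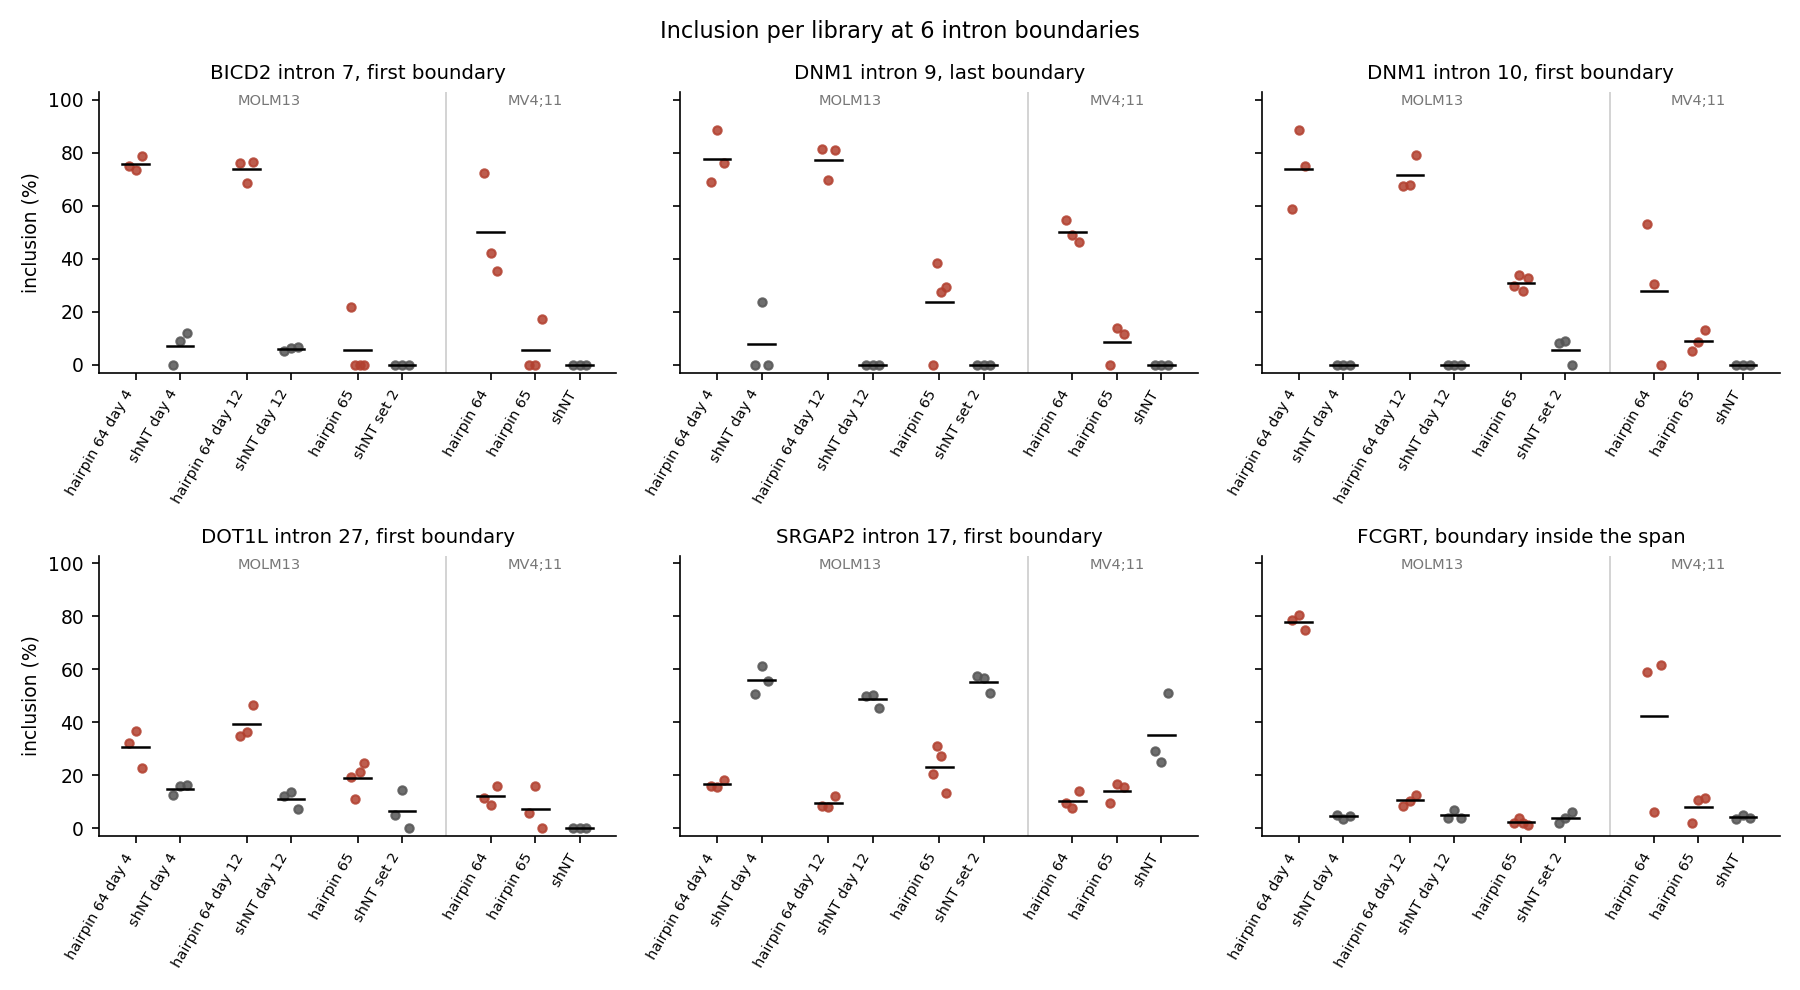
Inclusion (%) at 6 intron boundaries, 1 point per library with the group mean as a black line, for each knockdown group (red) and its shNT group (gray) in MOLM13 (left of the line) and MV4;11 (right). BICD2 and DNM1 are at 0 in most shNT libraries and high with hairpin 64 in MOLM13, SRGAP2 is lower with both hairpins, and FCGRT is high in MOLM13 with hairpin 64 at day 4 and in 2 MV4;11 libraries with hairpin 64.

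DNM1 encodes dynamin 1, a GTPase that pinches off endocytic vesicles, and its middle region is known for alternative exons. The last boundary of DNM1 intron 9 was retained in 68.9, 88.6 and 76.0% with hairpin 64 at day 4, against 0, 23.5 and 0% with shNT (70.0 ± 9.2 points, limma adjusted p = 0.13). At day 12 it was at 81.4, 69.6 and 81.2%, against 0 in all 3 shNT libraries (77.4 ± 3.7 points, adjusted p = 0.0054). In MV4;11 it was at 54.7, 49.0 and 46.4% with hairpin 64, against 0 in all 3 (50 ± 2.3 points, adjusted p = 0.011). These groups did not overlap, and each of the 3 calls held without any 1 library.

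The other end of DNM1 intron 9 rose as well. Its first boundary, the GC site printed above, was at 60, 73.3 and 62.5% with hairpin 64 at day 4, against 0, 15.2 and 0% (60.2 ± 6.2 points, limma adjusted p = 0.072), and at 55.6, 39.3 and 64.7%, against 0 in all 3, at day 12 (53.2 ± 7.0 points, adjusted p = 0.075). The difference was smaller in MV4;11, at 37, 36.6 and 18.9%, against 0 (30.8 ± 5.7 points, adjusted p = 0.24). There the call was lost without hairpin 64 library 1 or 2 or any 1 shNT library (27.8 to 30.8 points). Hairpin 65 moved intron 9 less. Its last boundary stood at 0, 38.6, 27.6 and 29.3% in MOLM13, against 0 in the second shNT set, and at 0, 13.7 and 11.6% in MV4;11, against 0, and neither was called (limma adjusted p = 0.64 and 0.97).

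DNM1 intron 10 (chr9:130986669-130996299, 9631 bases) follows. Its first boundary was at 58.7, 88.6 and 75% with hairpin 64 at day 4, against 0 in all 3 shNT libraries (74.1 ± 8.2 points, limma adjusted p = 0.086), and at 67.6, 68.0 and 79.3%, against 0 in all 3, at day 12 (71.7 ± 3.6 points, adjusted p = 0.0063). With hairpin 65 in MOLM13 it was at 29.5, 33.8, 27.9 and 32.7%, against 8.05, 8.96 and 0% (25.3 ± 2.8 points, adjusted p = 0.12). All 4 hairpin 65 libraries were close to 30% and lay above the second shNT set. In MV4;11 with hairpin 64 the boundary was at 53.1, 30.6 and 0%, against 0, and was not called (27.9 ± 15 points, adjusted p = 0.80).

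Boundaries inside intron 10 can belong to shorter annotated introns, of 1896 to 5812 bases, that lie within its junction. Their values are therefore not a measure of retention of the whole intron 10. Of 5 boundaries inside intron 10, at 3174 to 10703 bases from the first boundary of intron 9, all 5 rose with hairpin 64 at both MOLM13 times and 4 in MV4;11. At day 4 the calls at 4 of them were lost without hairpin 64 library 1, and some also without other libraries (34.5 to 61.2 points), and at day 12 that at 10703 bases was lost without hairpin 64 library 2 or any 1 shNT library (55.4 to 63.1 points). At the acceptor boundary 9125 bases along, DNM1 stood at 77.9, 51.8 and 66.1% with hairpin 64 in MV4;11, against 0 in all 3 shNT libraries (65.3 ± 7.2 points, limma adjusted p = 0.088), and at 41.8, 44.9, 47.0 and 55.4% with hairpin 65 in MOLM13, against 15.1, 0 and 0% (42.3 ± 5.2 points, adjusted p = 0.14). In MV4;11 inclusion at this boundary was higher with hairpin 64 than with hairpin 65 (11.4, 28.2 and 15.1%) by 47.0 ± 8.7 points (adjusted p = 0.32). The mirror event at the same boundary passed the call in 4 of the 5 comparisons, all but MV4;11 with hairpin 65, with differences of 38.2 to 75.7 points. At day 4, with the replicate number as a block, neither event at this boundary kept its call. The mirror event also lost it without any 1 hairpin 64 library or shNT library 2 (47.1 to 51.6 points). DNM1 expression did not pass the limits in the comparisons in which intron 9 rose (15.8 ± 0.65 RPKM with hairpin 64 at day 4, against 13.2 ± 4.0 RPKM with shNT, 7.95 ± 0.26 against 8.87 ± 1.2 RPKM at day 12, and 15.0 ± 0.71 against 12.4 ± 1.8 RPKM in MV4;11, SD, n = 3 each), and it rose with hairpin 65 in MV4;11, to 20.2 ± 1.1 RPKM, against 12.4 ± 1.8 RPKM (log2 fold change 0.67, adjusted p = 0.046).

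**Figure D4:**
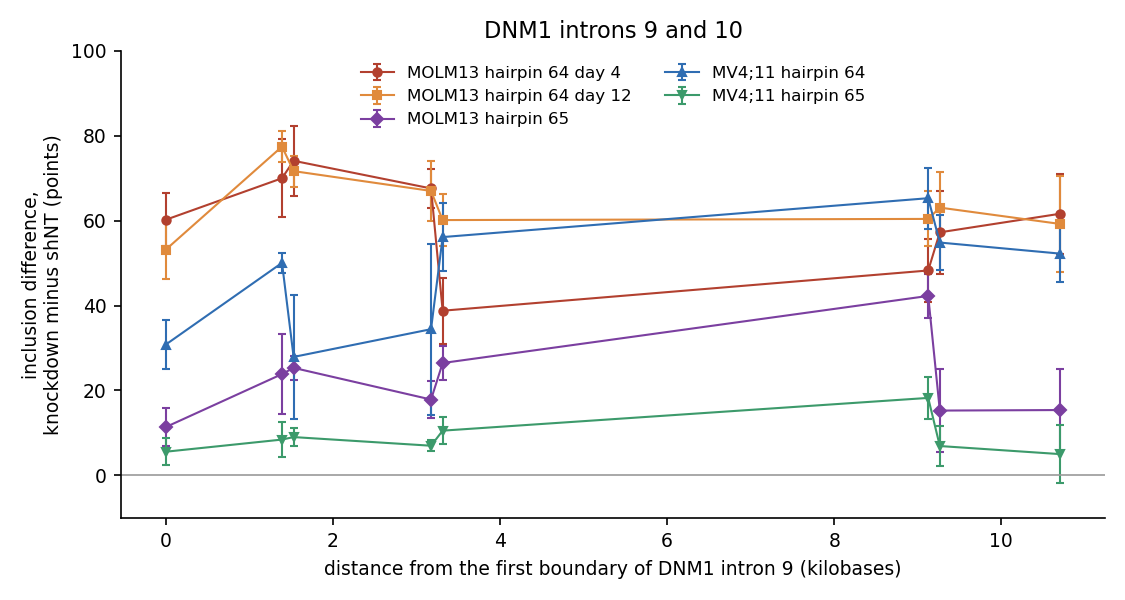
Inclusion difference, knockdown minus shNT in percentage points with the SE of the limma fit, at 8 boundaries of DNM1 introns 9 and 10 against their distance in kilobases from the first boundary of intron 9. Hairpin 64 differences in MOLM13 lie between 38.8 and 77.4 points, those in MV4;11 between 27.9 and 65.3 points, and hairpin 65 differences between 5.01 and 42.3 points.

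DOT1L, the histone H3 lysine 79 methyltransferase on which MLL-rearranged leukemia cells are known to depend, rose in 4 comparisons at an acceptor boundary inside intron 27. This boundary ends an annotated intron of 235 bases that lies inside the junction of intron 27. Its values are therefore not a measure of retention of the whole intron 27 of 2657 bases. Values with the boundary examined are given below. With the spliced junction examined, inclusion was 1 minus the value of that junction, which is not a direct share of retained reads. It was 88.4, 88.7 and 90.1% with hairpin 64 at day 12, against 35.9, 33.3 and 38.3% (53.2 ± 1.5 points, limma adjusted p = 0.0011). In MV4;11 it was at 60.8, 62.0 and 69.6% with hairpin 64, against 0, 0 and 12.5% (60 ± 4.8 points, adjusted p = 0.040). With hairpin 65 in MV4;11 it was at 37.8, 53.2 and 45.3%, against the same controls (41.3 ± 5.8 points, adjusted p = 0.28). The DOT1L boundary was thus called with both hairpins in MV4;11, and hairpin 64 was above hairpin 65 there by 18.7 ± 5.0 points, which was not called (adjusted p = 0.54).

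In MOLM13 at day 4, the DOT1L boundary was at 85.7, 90.4 and 73.3% with hairpin 64, against 42.7, 54.2 and 40.4% (37.3 ± 6.3 points, limma adjusted p = 0.21). That call was lost without hairpin 64 library 1 or 2 or shNT library 1 or 3 (33.7 to 36.0 points). With hairpin 65 it was at 60.3, 46.3, 61.5 and 66.0%, against 27.2, 44.1 and 9.64%, and was not called (31.5 ± 9.3 points, adjusted p = 0.49). With the boundary examined in place of the spliced junction, the same inner acceptor was at 25.7, 27.8 and 39.3% with hairpin 64 at day 12, against 9.14, 9.65 and 10.7% (21.1 ± 4.0 points, adjusted p = 0.16). The outer ends of the intron were read the same way. The first boundary was at 35.0, 36.2 and 46.7% with hairpin 64 at day 12, against 12.0, 13.8 and 7.25% (28.3 ± 4.0 points, adjusted p = 0.084). In MV4;11 it was at 11.4, 8.82 and 15.8% with hairpin 64, against 0 in all 3 (12.0 ± 1.9 points, adjusted p = 0.19), and that call was lost without hairpin 64 library 1 or any 1 shNT library (12.0 to 12.3 points). The last boundary was at 26.5, 19.5 and 24.1% at day 12, against 4.89, 0 and 7.35% (19.3 ± 2.8 points, adjusted p = 0.092). DOT1L expression was 17.8 ± 0.56 RPKM with hairpin 64 at day 12, against 14.5 ± 1.0 RPKM (SD, n = 3 each), under the limit of 1.5-fold.

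Other rises were shared by the hairpin 64 comparisons. At MTA1, a subunit of the NuRD chromatin remodeling complex, an acceptor boundary was at 86.0, 83.8 and 84.7% at day 4, against 26.3, 21.0 and 45.3% (54.0 ± 7.1 points, limma adjusted p = 0.13). At day 12 it was at 89.8, 79.7 and 85.5%, against 25.3, 24.5 and 22.2% (61.0 ± 2.9 points, adjusted p = 0.0055). In MV4;11 it was at 75.3, 72.4 and 57.8%, against 0, 0.571 and 11.3% (64.6 ± 6.2 points, adjusted p = 0.065). The lowest hairpin 64 library of MTA1 was above the highest control in each. With hairpin 65, MTA1 was at 27.8, 23.4, 22.5 and 34.7% in MOLM13, against 17.2, 21.3 and 9.42%, and was not called (11.1 ± 4.2 points, adjusted p = 0.63).

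PFKP encodes the platelet-type phosphofructokinase of glycolysis. Its boundary lay inside a longer spliced junction, and that junction was the one examined. At day 4 inclusion was 56.8, 55.9 and 68.4%, against 8.47, 23.3 and 29.5% (40.0 ± 7.0 points, limma adjusted p = 0.23). In MOLM13 with hairpin 65 it was at 17, 16.9, 33.8 and 22.9%, against 6.43, 0.400 and 5.81% (18.5 ± 4.8 points, adjusted p = 0.43). The day 4 call was lost without any 1 hairpin 64 library or shNT library 2 (35.9 to 42.2 points), and the hairpin 65 call was lost without hairpin 65 library 1, 2 or 4 or any 1 control (16.6 to 20.4 points). The shNT libraries of day 4 and day 12 overlapped the range of hairpin 65 at PFKP. The boundary was at 64.8, 61.1 and 52.7% with hairpin 64 in MV4;11, against 8.23, 6.56 and 15.5% (49.4 ± 4.3 points, limma adjusted p = 0.051), and at 45.0, 48.8 and 49.2%, against 12.6, 19.3 and 15.5%, at day 12 (31.8 ± 2.2 points, adjusted p = 0.015). It was higher with hairpin 64 than with hairpin 65 in MV4;11 by 40.4 ± 4.1 points (17.8, 23.9 and 15.8% with hairpin 65, adjusted p = 0.12). The direct comparison of the hairpins in MV4;11 called 82 of 15293 long intron events (50 higher and 32 lower with hairpin 64, 5 at adjusted p), beside 1.16% of all events, 0.554% higher and 0.602% lower, and 0.0718% at adjusted p.

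Falls were fewer, and SRGAP2, which encodes a GTPase-activating protein of the Slit-Robo pathway, held the steadiest of them. At the first boundary of SRGAP2 intron 17, printed above, retention was 16.1, 15.7 and 18.3% with hairpin 64 at day 4, against 50.8, 61.4 and 55.6% (−39.3 ± 3.0 points, limma adjusted p = 0.038). It was 8.55, 7.91 and 12.2% at day 12, against 50, 50.4 and 45.5% (−39.1 ± 2.0 points, adjusted p = 0.0061). With hairpin 65 in MOLM13 it was 20.5, 30.9, 27.4 and 13.3%, against 57.6, 56.9 and 51.1% (−32.1 ± 4.7 points, adjusted p = 0.18). Every knockdown library of MOLM13 lay below every control, with either hairpin.

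In MV4;11 the SRGAP2 boundary was at 9.55, 7.60 and 14.1% with hairpin 64 and 9.68, 16.6 and 15.7% with hairpin 65, against 29.3, 25 and 51.0% with shNT, and neither difference was called (−24.7 ± 7.9 and −21.1 ± 8.0 points, limma adjusted p = 0.56 and 0.90). A boundary in the junction before it (chr1:206626727-206628223) fell in 4 comparisons. With the spliced junction examined it was at 25, 26.1 and 24.4% with hairpin 64 at day 12, against 85.1, 84.5 and 85.6% (−59.9 ± 0.56 points, adjusted p = 0.00015). It was at 36.7, 38.0 and 43.8% in MV4;11, against 85.3, 81.5 and 86.1% (−44.8 ± 2.5 points, adjusted p = 0.016), and at 61.4, 57.0 and 56.0% with hairpin 65 there (−26.2 ± 2.1 points, adjusted p = 0.10). The hairpins differed by −18.6 ± 2.6 points in MV4;11 (adjusted p = 0.21). SRGAP2 has near-identical partial copies in the genome (SRGAP2B and SRGAP2C). Whether these copies reach the boundaries given here was not checked, so it is unknown whether reads from them affect its values.

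ARFGAP2, a GTPase-activating protein of the COPI vesicle coat, fell in 4 comparisons as well. Its acceptor boundary was at 19.8, 14.2 and 18.4% with hairpin 64 at day 12, against 52.4, 54.2 and 46.9% (−33.7 ± 2.6 points, limma adjusted p = 0.020), and at 17.8, 21.9 and 27.1% at day 4, against 41.3, 45.8 and 45.5% (−22 ± 2.9 points, adjusted p = 0.13). In MV4;11 it was at 23.9, 23.0 and 7.79% with hairpin 64 and 21.5, 30.9 and 13.1% with hairpin 65, against 42.4, 48.2 and 49.6% with shNT (−28.5 ± 5.4 and −24.9 ± 5.3 points, adjusted p = 0.26 and 0.49). Both MV4;11 calls of ARFGAP2 were lost when any 1 shNT library was left out, and also without hairpin 64 library 2 or hairpin 65 library 1 or 3 (−30.9 to −27.1 points for hairpin 64 and −27.0 to −20.5 points for hairpin 65).

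Across the 5 comparisons, 745 long intron events of 439 genes were called at least once. Of these, 523 rose and 96 fell in a single comparison, 73 rose and 14 fell in 2, 23 rose and 1 fell in 3, and 7 rose and 5 fell in 4, while 3 were called in opposite directions and none was called in all 5. The 36 events called in at least 3 comparisons came from 15 genes, and the 12 called in 4 from 7 genes. The MV4;11 comparisons share their controls, so calls in both are not separate evidence.

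Both ends of an intron seldom passed together. Among introns tested at both ends, 14 of 572 were called at either end at day 4 and 5 at both, and at day 12 it was 15 of 656 and 6. The counts were 8 of 574 and 2 with hairpin 65 in MOLM13, 15 of 596 and 3 with hairpin 64 in MV4;11, and 5 of 598 and 0 with hairpin 65 there. Where both ends were called, the direction was the same in each.

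The hairpin 64 response of some introns differed between the lines or the times, by a test of the difference. In FCGRT, the heavy chain of the neonatal Fc receptor, the spliced junction chr19:50028034-50028713 was examined against a boundary inside it. Inclusion was 78.5, 80.6 and 74.9% with hairpin 64 at day 4, against 5.08, 3.42 and 4.74% (73.6 ± 1.6 points, limma adjusted p = 0.0027). At day 12 it was at 8.55, 10.3 and 12.5%, against 3.85, 6.84 and 4.01%, which was not called (5.6 ± 1.4 points, adjusted p = 0.27). The response was lower at day 12 by 68.0 ± 2.2 points (interaction, adjusted p = 2.0e-05). FCGRT was also split in MV4;11, where hairpin 64 libraries gave 59.1, 6.25 and 61.6%, against 3.56, 4.80 and 3.93%. FCGRT expression fell at day 12, to 21.9 ± 2.4 RPKM, against 33.6 ± 1.8 RPKM (SD, n = 3 each, log2 fold change −0.60, adjusted p = 0.00059). Day and sequencing instrument cannot be told apart. Over all long intron events the day difference called 108 of 14086 (33 higher and 75 lower at day 12, 6 at adjusted p), beside 0.779% of all events, 0.354% higher and 0.425% lower, and 0.0211% at adjusted p.

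CIRBP, the cold-inducible RNA-binding protein, was all or none. A donor boundary inside its junction was at 82.3, 80.0 and 93.1% with hairpin 64 at day 4, against 0 in all 3 shNT libraries (85.2 ± 3.8 points, limma adjusted p = 0.012), and at 0 in all 9 MV4;11 libraries, so that the lines differed by 85.2 ± 3.9 points (interaction, adjusted p = 0.00014). At day 12 it was at 76.6, 78.0 and 80.1% with hairpin 64, against 0, 74.7 and 0% with shNT, and was not called (adjusted p = 0.57). Hairpin 65 gave 67.6, 0, 0 and 77.7% in MOLM13, against 0 in the second shNT set. A shNT library of day 12 therefore reached the level of the knockdown, and the level did not follow the hairpin in each library.

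RNMT, the methyltransferase of the messenger RNA cap, behaved likewise in MV4;11. The last boundary of its intron 11 was at 0 in all 6 hairpin libraries, against 63.3 and 64.7% in the 2 shNT libraries with a value (−64 ± 0.48 points for each hairpin, limma adjusted p = 0.0012 with hairpin 64 and 0.010 with hairpin 65). In MOLM13 it was at 0 in every measured day 4 library, and at day 12 it was at 69.0, 0 and 0% with hairpin 64, against 0, 72.7 and 72.2%. The lines differed by 64.0 ± 0.51 points (interaction, adjusted p = 1.2e-07), a value that rests on 2 MV4;11 controls. With the MOLM13 controls of day 4 at 0, a fall in that line was not possible. The line difference called 109 of 13516 long intron events (85 higher and 24 lower in MOLM13, 12 at adjusted p), beside 0.794% of all events, 0.435% higher and 0.359% lower, and 0.035% at adjusted p.

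Hairpin 65 called introns of its own, part of which rest on its control set. At FGR intron 3 (546 bases), in a Src family kinase of myeloid cells, the spliced junction was examined. Inclusion was 37.4, 49.2, 67.6 and 56.6% with hairpin 65 in MOLM13, against 3.51, 11.4 and 8.82% in the second shNT set (44.8 ± 7.4 points, limma adjusted p = 0.23). The other MOLM13 shNT libraries stood at 50, 66.7 and 0% at day 4 and 47.2, 48.6 and 53.5% at day 12, and all but 1 of these lay within the range of the hairpin 65 libraries. MGAT4B, a glycosyltransferase, was at 46.5, 38.6, 57.1 and 55.2% with hairpin 65, against 2.20, 0 and 17% in the second set (42.9 ± 6.4 points, adjusted p = 0.19), while the other MOLM13 controls lay between 35.0 and 62.2%.

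ANKRD11 intron 7, in a chromatin regulator, fell with hairpin 65 in MOLM13, at 12.2, 11.2, 8.65 and 13.6%, against 33.8, 36.8 and 45.5% (−27.3 ± 3.0 points, limma adjusted p = 0.12). Its shNT libraries of day 4 were at 42.4, 36.5 and 19.4% and those of day 12 at 24.6, 15.5 and 12.3%, the last within the hairpin 65 range. MED22, a Mediator subunit, fell in 2 MOLM13 comparisons, at 45.7, 47.8, 45.0 and 50% with hairpin 65, against 64.3, 76.9 and 68.6% (−22.8 ± 3.2 points, adjusted p = 0.17). It was at 65.7, 73.1 and 61.9% with hairpin 64 at day 4, against 95.6, 88.9 and 95.0% (−26.2 ± 3.7 points, adjusted p = 0.15, a call that the replicate block ends). The groups were separate in each.

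In MV4;11, LGALS8 intron 9 (3096 bases), in the gene of galectin 8, rose with hairpin 65 and not with hairpin 64. It was at 35.7, 28 and 30.7% with hairpin 65, against 1.82, 0 and 0% with shNT (30.9 ± 2.2 points, limma adjusted p = 0.089). With hairpin 64 it was at 5.36, 0 and 0%, lower than with hairpin 65 by 29.7 ± 2.7 points (adjusted p = 0.10). IKZF1, the lymphoid and myeloid transcription factor Ikaros, was at 41.5, 37.4 and 44.2% with hairpin 65, against 0 in all 3 shNT libraries (41.0 ± 1.9 points, adjusted p = 0.046). Hairpin 64 gave 37.2, 55.1 and 0%, which was not called, and the hairpins did not pass the test against each other (−10.2 ± 16 points, adjusted p = 1.0). Single IKZF1 libraries at 0 also stood in 3 MOLM13 groups, as with hairpin 64 at day 4 (61.1, 58.3 and 0%, against 38.8, 42.6 and 34.1% with shNT).

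Host genes were counted over 7 lists drawn up with earlier results of these data known, beside 3.04% of 4281 hosts called at day 4, 3.51% of 4643 at day 12, 3.33% of 4261 with hairpin 65 in MOLM13, 2.17% of 4380 with hairpin 64 in MV4;11 and 1.30% of 4397 with hairpin 65 there. Of 35 membrane trafficking genes tested, 4 had a higher intron at day 4 (BICD2, CLTCL1, DNM1 and SEC16A), 4 at day 12 (BICD2, DNM1, DNM2 and SEC16A), 2 with hairpin 65 in MOLM13 (DNM1 and GGA1), 3 with hairpin 64 in MV4;11 (AP4B1, BICD2 and DNM1) and 2 with hairpin 65 there (GGA1 and SEC16A), and none had a lower one. The list was drawn up with results for BICD2 and DNM1 known, so the counts are a description. DNM2, the widely expressed dynamin, rose at day 12, at 13.3, 11.4 and 9.09%, against 0 in all 3 (11.3 ± 1.1 points, limma adjusted p = 0.040).

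Small GTPase regulators had calls in both directions. At day 12, 4 of 30 were higher (ARHGAP9, ARHGEF11, ARHGEF40 and DNM2) and 2 lower (ARHGAP33 and ARHGEF1). At day 4, ARHGEF40 was higher and ARHGAP33 lower of 27. Hairpin 65 in MOLM13 gave 3 of 26 higher (ARHGEF40, ARHGEF7 and TSC2). In MV4;11, ARFGAP1 was higher and ARHGEF1 and DOCK8 lower of 27 with hairpin 64, and none of 27 was called with hairpin 65. At ARHGAP33, a donor boundary was at 23.6, 37.7 and 24.6% at day 12, against 89.2, 97.2 and 90.0% (−63.5 ± 4.9 points, limma adjusted p = 0.020). It was at 0 in all 3 MV4;11 libraries with hairpin 64 and at 95.2, 70.0 and 86.4% with hairpin 65 (−83.9 ± 7.0 points between hairpins, adjusted p = 0.078). ARHGEF1, a guanine nucleotide exchange factor of blood cells, was at 13.8, 17.5 and 13.5% at day 12, against 37.9, 38.6 and 42.1% (−24.6 ± 1.7 points, adjusted p = 0.015), and at 11.2, 8.30 and 18.2%, against 11.6, 17.8 and 24.9%, at day 4, where the groups overlapped.

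ARHGEF40 is a further guanine nucleotide exchange factor, and its boundary in the junction chr14:21555623-21556126 was at 64.5, 51.5 and 65.1% at day 12, against 22.3, 14.1 and 15.8% (43.0 ± 4.8 points, limma adjusted p = 0.050). At day 4 it was at 68.8, 61.3 and 73.3%, against 32.9, 19.4 and 3.70% (49.1 ± 8.7 points, adjusted p = 0.23). That call ended with the replicate block and was also lost without any 1 hairpin 64 library or shNT library 2 (46.4 to 52.4 points). Its intron 19 (1134 bases) rose with hairpin 65 in MOLM13, at 15.9, 17.2, 28.4 and 16.1%, against 1.59, 4.17 and 1.92% (16.8 ± 3.5 points, adjusted p = 0.32), a call lost without any 1 library of the second shNT set (16.3 to 17.6 points). The shNT libraries of day 4 (4.76 to 27.3%) and day 12 (1.05 to 20.6%) overlapped the hairpin 65 range.

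Among myeloid receptors and transcription factors, 4 of 25 were higher at day 4 (CSF3R, FCGRT, LAIR1 and TYK2), 3 of 25 at day 12 (FCGRT, LAIR1 and LILRB1), none of 25 with hairpin 65 in MOLM13, 1 of 23 with hairpin 64 in MV4;11 (TYK2) and none of 23 with hairpin 65. LAIR1, an inhibitory receptor for collagen, was at 27.8, 30.2 and 27.5% at day 12, against 12.3, 10.2 and 12.3% (16.9 ± 1.0 points, limma adjusted p = 0.011). LAIR1 expression was 48.7 ± 3.9 RPKM there, against 70.1 ± 0.21 RPKM (SD, n = 3 each, log2 fold change −0.52), under the limit of 1.5-fold.

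Of MLL and chromatin regulators, DOT1L was the higher one of 20 at day 4 and of 19 with each hairpin in MV4;11, DOT1L and HDAC7 were higher of 20 at day 12, and none of 19 was called with hairpin 65 in MOLM13. SETD1A intron 1, in its 5′ untranslated region, was at 0 in every library that measured it. Splicing factors gave 1 higher of 55 at day 4 (CIRBP), 1 higher and 1 lower of 57 at day 12 (ACIN1 and EWSR1), 2 higher (DDX39B and SRSF11) and 2 lower (CLK1 and SRSF1) of 54 with hairpin 65 in MOLM13, and none of 55 with either hairpin in MV4;11. No intron of 14 nonsense-mediated decay and RNA decay factors was called in any comparison. Notch pathway genes gave NOTCH1 with hairpin 65 in MOLM13 (1 of 14) and SPEN with hairpin 65 in MV4;11 (1 of 15), and none with hairpin 64.

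Mean differences were smaller in longer introns. Over introns with their own spliced junction, the mean difference at day 4 was 2.40 points under 1000 bases, 1.89 at 1000 to 1999 bases, 1.48 at 2000 to 4999 bases and 0.841 at 5000 bases or more. The same order held at day 12 (1.56, 1.14, 1.06 and 0.968 points), with hairpin 65 in MOLM13 (1.97, 1.56, 0.999 and 0.620 points), with hairpin 64 in MV4;11 (1.18, 1.03, 0.750 and 0.256 points) and with hairpin 65 there (1.15, 0.629, 0.606 and 0.419 points). The control level was lower in longer introns too (10.8% under 1000 bases and 4.31% at 5000 bases or more with shNT at day 4), and the part of that level in the order of the differences was not tested.

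**Figure D5:**
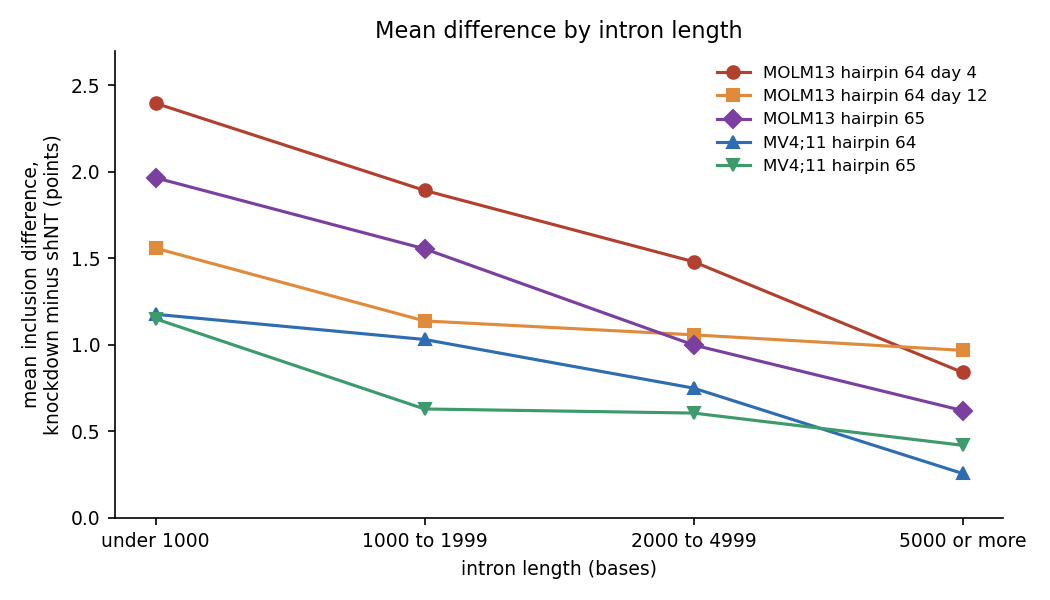
Mean inclusion difference, knockdown minus shNT in percentage points, of introns with their own spliced junction in 4 length classes (bases), 1 line per comparison. Each line is lower at each longer class, and at 5000 bases or more the means lie between 0.256 and 0.968 points.

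Base composition and YGCY letters were counted for introns called in either direction. The median GC content of introns called higher was 53.3% at day 4 (n = 55), 50.7% at day 12 (n = 45), 55.4% with hairpin 65 in MOLM13 (n = 40), 52.2% with hairpin 64 in MV4;11 (n = 31) and 50.4% with hairpin 65 (n = 20), beside 43.6 to 44.3% over all introns tested. Introns called lower, 6 to 12 a comparison, had medians of 39.3 to 50.5%, and at day 12 their median was close to that of introns called higher. Next to the 5′ splice site, introns called higher had medians of 1.6 to 2 YGCY matches per 100 bases and introns called lower 1 to 1.8, beside 1.2 over all tested. Next to the 3′ splice site the medians were 1.2 to 2 for introns called higher and 0.8 to 1.6 for those called lower, beside 1.2, and at day 12 the median of introns called higher equaled that of all tested. Such letters hold mostly G and C, so the share that base composition has in this density was not tested.

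Expression of the host genes was not lower on balance where an intron rose. The median log2 fold change of genes with an intron called higher was 0.13 at day 4 (109 genes with an expression test), 0.08 at day 12 (114), 0.20 in MOLM13 with hairpin 65 (129), 0.21 in MV4;11 with hairpin 64 (72) and 0.27 with hairpin 65 (43), beside −0.00, 0.04, 0.05, 0.01 and 0.06 over all genes tested. Of these hosts, 5 rose and none fell in expression at day 4, 8 rose and 2 fell at day 12, 6 rose and 1 fell with hairpin 65 in MOLM13, 9 rose and none fell with hairpin 64 in MV4;11, and 1 rose and none fell with hairpin 65, beside 2.42, 5.52, 3.24, 6.51 and 3.63% of all genes called. The shares of all genes that rose were 1.33, 3.27, 1.76, 3.89 and 1.78%, and of those that fell 1.09, 2.25, 1.48, 2.62 and 1.85%. Hosts of an intron called lower had median log2 fold changes of 0.14 at day 4 (15 genes), 0.07 at day 12 (37) and 0.22 in MOLM13 with hairpin 65 (12). In MV4;11 they had 0.06 with hairpin 64 (22) and −0.01 with hairpin 65 (11). A positive median was thus not particular to hosts of introns that rose. At day 4 the hosts of all tested long introns called in expression numbered 86, and 243 with the replicate number as a block. Expression and retention come from the same libraries and are not independent measures.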

How the data were processed

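RNA sequencing of 28 libraries in 9 groups was analysed. Per the labels and the study's methods, the authors aligned reads to hg19 (GRCh37) with STAR and derived splicing and expression values with AltAnalyze. The deposited splicing table holds PSI as a fraction of junction reads, and the deposited expression table holds RPKM per gene; read counts behind either were not used here, so depth is unknown. Groups came from the labels, and 3 columns of the second shNT set name only their group. No column of per-sample values was left unused.

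Inclusion was tested over all splicing events with limma 3.58.1 in R 4.3.3, between the 2 groups of a comparison, for events measured in over 50% of each group's libraries. A call needed p at most 0.01 before adjustment together with a difference over 10 points, and Benjamini-Hochberg adjusted p-values cover all events tested. Interactions compared the hairpin 64 responses between lines and between days. Expression was tested with limma on log2(RPKM + 1), which understates the change of low genes, for genes with a mean of at least 1 RPKM in either group, and called at p of 0.01 or less and 1.5-fold. Scripts were tested on simulated data. Sequences were read from GRCh37, the build of the tables, in which 98.8% of the 5708 introns began with GT and 99.6% ended with AG.

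The members and gene lists were chosen with earlier results of these data known. Named events were, for each comparison, the 10 called events that rose most and the 5 that fell most, with separate groups (1 per gene, lowest p), the 10 largest changes among events called in the same direction in at least 4 comparisons (3 where fewer than 10 were), list genes called at an adjusted p of 0.05 or less, and DOT1L, SETD1A, CIRBP, FCGRT, DNM1, BICD2, ARHGEF40 and AP1G2. The text describes those that bear on its comparisons.

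Same-numbered libraries deviated together at day 4 (r = 0.169, 0.105 and 0.300 for inclusion and 0.858, 0.813 and 0.893 for expression). Libraries 1 and 2 also deviated together across numbers (r = 0.103 and 0.116 for inclusion and 0.763 and 0.675 for expression). Their r with libraries 3 of the other group was negative. The values thus set both libraries 3 apart, but for inclusion they do not show that libraries 1 and 2 pair by number. The numbers were taken as pairs there on this limited ground, and the replicate block was fitted as an alternative. No 2 libraries shared more than 0.415% of identical values over events between 0 and 1. Alternatives were another scale, detection rule, difference limit, length limit, control set, unit of counting, shared fit and leaving out each library.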

Additional observations from a re-analysis of the deposited data

Results flagged for a closer look

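In the hairpin 65 group of MOLM13, the group of 4 libraries, 10 of 79 sets of values had 1 library far from the other 3. The sets were named events with a value in all 4 libraries, and the mean inclusion. The limit used assumes normal values, and a single value beside exact zeros passes it at once, so no rate by chance is given. The flagged BICD2 events share an intron and are not independent. Library 1 stood high at all 3 BICD2 events, at 21.9% at the first boundary of intron 7 and at 32.4 and 43.2% at the inner boundary with either junction examined, while the other 3 libraries were at 0 or, for 1 value, at 5.26%. Library 2 stood apart at RAPGEF2 (91.7%) and at FCGRT (3.95%), and library 1 at a second FCGRT boundary (9.27%). Library 3 was high at ARHGEF40 intron 19 (28.4%) and at LAIR1 (17.3%). Library 4 was high at ARHGAP33 (100%) and at 0 at IL23A.

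The hairpin 64 response differed between the lines, MOLM13 minus MV4;11, by 85.2 and 63.8 points at the donor and acceptor boundaries of CIRBP, by 64.0 points at RNMT and by 41.9 points at NBPF11 (limma interaction, adjusted p under the limit of 0.05). NBPF11 belongs to a multigene family of near-identical copies, which makes its values uncertain. The response differed between day 12 and day 4 at FCGRT, by −68.0 points.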

How the results depend on the processing

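No named difference that passed the call reversed with the replicate block, where it was fitted, or without any 1 library. Named differences were not run with all 6 MOLM13 shNT libraries as controls. Against shNT, more long intron events rose than fell under each alternative counted by direction. The balance of host gene expression calls with hairpin 65 in MV4;11 did reverse, as given below. Without any 1 library, called long intron events numbered 157 to 225 at day 4 (216 with all libraries), 230 to 271 at day 12 (253), 145 to 329 with hairpin 65 in MOLM13 (223), 115 to 203 with hairpin 64 in MV4;11 (150) and 62 to 134 with hairpin 65 there (77). In the same order of comparisons, a difference over 20 points left 125, 121, 92, 86 and 44 calls, an adjusted p of 0.05 or less left 25, 82, 6, 33 and 3, events whose spliced junction shares the boundary gave 73, 75, 63, 46 and 29, calls at both boundaries 5, 6, 2, 3 and 0, and events above 0 in every library, chosen after seeing the data, 101, 156, 78, 56 and 24. One event per cluster gave 130, 149, 133 and 89 for the first 4. One fit over all 9 groups gave 388 at day 4, 398 with hairpin 65 in MOLM13 and 130 in MV4;11, all 6 MOLM13 shNT libraries as controls gave 375 at day 4, and a span of 1000 bases or more gave 140 with hairpin 65 in MOLM13. The causes were not tested. With the replicate block the calls numbered 152 at day 4, 184 at day 12, 90 with hairpin 64 in MV4;11 and 54 with hairpin 65; outside day 4 the libraries share only a number, and of 144 named tests 41 calls were lost and 1 gained. No paired analysis was possible for hairpin 65 in MOLM13 because the columns of its control set carry no replicate number. Of 149 named calls, 102 held without each library. Differences in mean inclusion stayed above 0 without any 1 library, at 1.38 to 2.23, 0.900 to 1.21, 1.81 to 2.34, 0.532 to 1.08 and 0.273 to 1.29 points.

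Host genes called in expression numbered 86 at day 4, 243 with the replicate block and 38 to 129 without any 1 library. At day 12 they numbered 171, 278 with a pseudocount of 0.1 and 156 to 189 without any 1 library. With hairpin 65 in MOLM13 they numbered 115, 53 without a filter and 50 to 344 without any 1 library, the highest without column 1 of the second shNT set. In MV4;11, hairpin 64 gave 239, 120 without a filter and 127 to 690, and hairpin 65 gave 107, 59 without a filter, 169 with a pseudocount of 0.1 and 72 to 452, both highest without shNT library 3. With hairpin 65 there, the hosts were 55 higher and 52 lower, and 23 higher and 36 lower without a filter. Lower hosts also outnumbered higher ones without hairpin 65 library 1 or 2 or shNT library 1 or 2.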

Other observations

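Introns outside the comparisons above also differed between the days. FAAH, a fatty acid amide hydrolase, was at 14.6, 14.3 and 18.0% with hairpin 64 at day 12, against 15.4, 19.5 and 15.6% with shNT, and at 31.6, 26.8 and 30% with hairpin 64 at day 4, against 0 in all 3 shNT libraries, so that the response was lower at day 12 by 30.7 ± 2.2 points (limma interaction, adjusted p = 0.0046). HEATR5B, which acts with vesicle adaptor complexes, was at 20.8, 20 and 25.7% with hairpin 64 at day 12, against 0 in all 3, and at 0 in all 6 day 4 libraries (22.2 ± 1.7 points, adjusted p = 0.0058). YBX3, a cold shock domain protein, was at 0 in all 3 hairpin 64 libraries of day 12, against 13.3, 12.4 and 12.2%, and at 20.6, 18.0 and 14.8% at day 4, against 12.4, 13.4 and 11.3% (−18.1 ± 1.8 points, adjusted p = 0.021). Of 5 long intron events of AP1G2, a subunit of a vesicle adaptor complex, none was called in any comparison. These introns were chosen after their values were seen.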
